A study of Mus musculus with 9 samples.

Results

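Thrombopoietin signalling was followed in mMKs through 8 genes chosen by name, Jak2, Ptpn11, Cbl, Sh2b3, Cish, Socs2, Socs3 and Pim1, among 37325 genes named on the array. Each of the 8 genes had at least 1 probe that could be tested, and they carry 17 probes in all. The cells came from the bone marrow of male mice. One group was not irradiated (Ctrl), and the other groups were taken 1 or 3 days after 5 Gy of γ-rays to the whole body (1 dpi and 3 dpi), each group holding 3 of the 9 arrays. The methods describe sham irradiation for control mice. The study describes an independent experiment with other donors for each array of a group. The methods enrich mMKs by positive selection for CD41 and then CD42d, surface proteins of the megakaryocyte lineage, and give C57BL/6 as the mouse background, while the age of these animals is not given with the arrays. The comparisons ask how mMKs taken after IR differ from those of unirradiated marrow soon after IR and 2 days later.

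Thrombopoietin is the main cytokine of the megakaryocyte lineage. It signals through the kinase Jak2, which phosphorylates the STAT5 factors. STAT5 switches on target genes, among them Cish, Socs2 and the survival kinase Pim1, and the STAT3 branch switches on Socs3. The products of Cish, Socs2 and Socs3 bind active signalling complexes and dampen them, so that the output of the pathway is also its brake. Sh2b3 (Lnk) is an adaptor that restrains Jak2, and its loss in mice raises megakaryocyte and platelet numbers. Ptpn11 (Shp2) is a phosphatase that carries the signal to the RAS branch, and Cbl is a ubiquitin ligase that sends active receptors and kinases to degradation.

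The values are log2 intensities of 60-base probes, scaled by subtracting the 75th percentile of the array, so that a level of 0 is the brightness of that percentile. In Ctrl replicate 1, 69.1% of spots were well above background, in Ctrl replicates 2 and 3 it was 79.5% and 80.8%, and the range was 72.3% to 75.6% at 1 dpi and 81.6% to 81.8% at 3 dpi. Ctrl replicate 1 stood apart. It was the only array on its slide, and its log2 values correlated with those of the other Ctrl arrays at r = 0.987, against 0.998 between these, across genes that are not independent replicates. The 1 dpi arrays were dimmer before scaling. Their log2 75th percentile was 9.33 to 9.45, against 10.03 to 10.66 in Ctrl and 10.37 to 10.55 at 3 dpi. All of them lay in row 2 of the other slide, where its Ctrl arrays lay in row 1. On that slide, differences between 1 dpi and Ctrl cannot be told apart from row or array brightness. Precision is limited by the number of arrays, and with 3 against 3 the smallest two-sided p of an exact permutation test is 0.10. The median change of the 29410 genes tested was not 0 after scaling, with a log2 fold change of 0.25 for 1 dpi and 0.11 for 3 dpi against Ctrl and -0.11 for 3 dpi against 1 dpi, so changes are also given relative to it. Without Ctrl replicate 1 the medians against Ctrl were 0.15 and 0.01, so that the values relative to all genes rest in part on this array. A gene was called at an adjusted p under 0.05 in limma's test with a change of at least 2-fold, and "rose" and "fell" are kept for called genes. The comparisons of 1 and 3 dpi with Ctrl share the Ctrl arrays.

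Cish, Socs2, Socs3 and Pim1 were higher after IR, though at 1 dpi the small differences of Socs2 and Socs3 turned negative after scaling to the array median. Jak2, Ptpn11 and Cbl stayed near their Ctrl level with the scaling used, where Cbl was slightly lower at 1 dpi (-0.15, adjusted p = 0.0441). These are readings of the brightest probe of each gene. Cish rose 2.004-fold at 1 dpi and was 1.52-fold higher at 3 dpi. Socs2 and Socs3 were little higher at 1 dpi and 1.995-fold and 1.85-fold higher at 3 dpi, Socs2 just short of the threshold. Pim1 was 1.58-fold higher at both times. Sh2b3 was 1.34-fold lower at 1 dpi and back near Ctrl at 3 dpi.

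**Figure D1:**
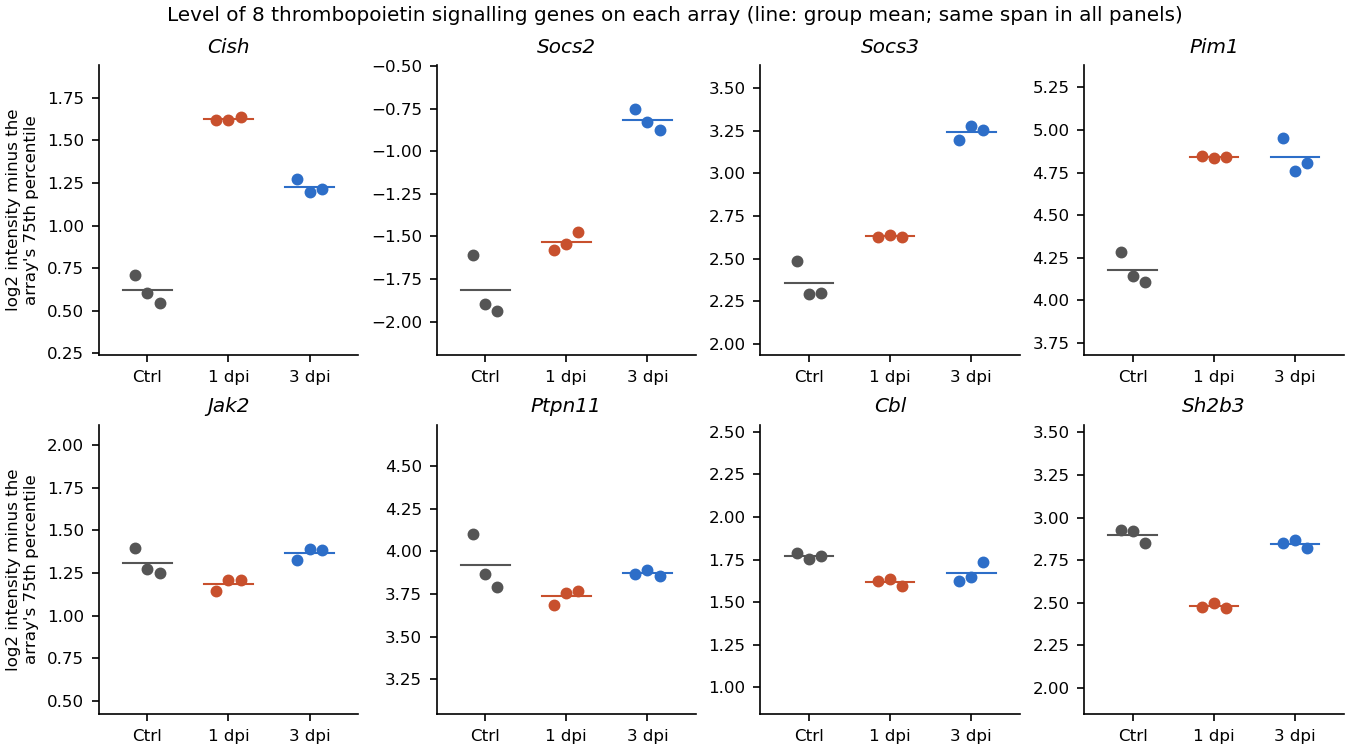
Scaled log2 intensity of each gene on each of the 9 arrays, on the brightest probe of the gene. Points are single arrays in order of replicate number, lines are group means, and every panel spans the same range on the log2 scale. Cish is highest at 1 dpi, Socs2 and Socs3 are highest at 3 dpi, Pim1 is alike at both times after IR, and Sh2b3 is low at 1 dpi.

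At 1 dpi, 1 of the 8 genes was called, Cish, against 15.2% of all genes, 12.3% called higher and 2.87% lower. Of these called genes 81.1% were higher, but 56.3% were with quantile normalization and 48.8% with the array median. Without a minimum fold change, 4 of the 8 genes were higher and 2 lower at 1 dpi, while the shares of all genes were 34.8% and 21.1%. At 3 dpi, 0 of the 8 genes were called in limma's test, against 8.80% of all genes, 6.98% higher and 1.82% lower. There 4 of the 8 genes had an unadjusted p under 0.05, and the same number passed on the adjusted p alone, all of them higher, against 16.9% of all genes higher and 15.1% lower. Between 3 and 1 dpi, 0 of the 8 genes were called, against 8.80% of all genes, 3.97% higher and 4.82% lower. The balance over all genes turned with the scaling there, as 45.2% of the called genes were higher, but 62.9% with quantile normalization and 67.2% with the array median. In that comparison 5 genes had an unadjusted p under 0.05, and on the adjusted p alone 4 were higher and 1 lower, against 19.8% and 24.9% of all genes. The median log2 fold change of the 8 genes was 0.08 at 1 dpi and 0.33 at 3 dpi, which is -0.17 and 0.22 relative to all genes. So the share of called genes at 1 dpi was close to that of the array as a whole, and the 8 genes did not move as a block. Cish, Socs2, Socs3 and Pim1 lay above the median of all genes at both times, and the other 4 lay below it, but at 3 dpi Jak2 (0.11) and Ptpn11 (0.04) lay above the median (0.01) without Ctrl replicate 1, and Jak2 (0.06) above it (0.01) after quantile normalization.

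Cish encodes a cytokine-induced inhibitor that competes for the docking sites of STAT5. Its probe lies at chr9:107204196-107204255 on the plus strand of build mm9. The scaled log2 level of Cish was 0.71, 0.61 and 0.55 on the Ctrl arrays. At 1 dpi it was 1.62, 1.62 and 1.64, and at 3 dpi it was 1.27, 1.20 and 1.21. All arrays at 1 dpi were thus above all arrays at 3 dpi, and these above all Ctrl arrays. For Cish the log2 fold change at 1 dpi was 1.00 (SE 0.06, adjusted p = 1.37e-05) and that at 3 dpi 0.61 (adjusted p = 0.000206), or 0.76 and 0.49 relative to the median of all genes. Between 3 and 1 dpi Cish was lower by a log2 difference of -0.40 (adjusted p = 0.00164), which after scaling to the array median did not pass (adjusted p = 0.281). Its 2.004-fold rise sits on the threshold. The log2 fold change at 1 dpi was 1.05 without Ctrl replicate 1, but the call was lost without Ctrl replicate 2 (1.00), Ctrl replicate 3 (0.97) or 1 dpi replicate 3 (1.00), each just under 2-fold, and after scaling to the array median (0.69). In each of these settings the adjusted p stayed under 0.05 and Cish was higher at 1 dpi.

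The promoter of Cish is shown because 4 of the genes above are known STAT targets, and STAT factors bind the motif TTCNNNGAA, which is its own reverse complement. In the RefSeq promoters of GRCm38.p6, which run from 250 bases before to 50 after the start, 7 of the 8 genes were found, Socs2 being the other. The motif was present in the promoters of Cish and Socs3 and not in those of Jak2, Sh2b3, Pim1, Ptpn11 and Cbl within this window. Of 32851 promoters, 2726 (8.30%) hold it, and 150 (0.457%) hold at least 2 matches, as Cish does. A match is a run of letters and not a measured binding site. The stretch of Cish covers chr9:107296559-107296688 on the plus strand, from 100 bases before the start to 30 after it, and the stretch of Socs3 covers the 200 bases before the start used in the table, chr11:117969367-117969566 on the minus strand. Capitals mark the motif.
Cish: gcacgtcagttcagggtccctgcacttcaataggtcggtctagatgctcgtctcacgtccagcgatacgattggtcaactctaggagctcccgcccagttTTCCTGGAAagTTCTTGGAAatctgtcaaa
Socs3: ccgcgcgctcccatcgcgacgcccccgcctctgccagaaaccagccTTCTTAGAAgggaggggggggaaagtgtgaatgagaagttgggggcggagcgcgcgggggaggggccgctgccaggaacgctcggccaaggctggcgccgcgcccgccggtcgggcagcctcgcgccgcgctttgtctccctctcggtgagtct

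Socs2 and Socs3, 2 other members of the SOCS family that tag active signalling complexes for degradation, differed most from Ctrl at 3 dpi on their brightest probes. The scaled log2 level of Socs3 was 2.49, 2.29 and 2.30 on the Ctrl arrays. It was 2.63, 2.64 and 2.63 at 1 dpi and 3.19, 3.28 and 3.26 at 3 dpi. The groups did not overlap, and the step from 1 to 3 dpi was larger than the step from Ctrl to 1 dpi. Against Ctrl, Socs3 had a log2 fold change of 0.27 (SE 0.07, adjusted p = 0.0119) at 1 dpi and of 0.88 (adjusted p = 5.18e-05) at 3 dpi. Relative to the median of all genes these are 0.03 and 0.77, so the difference at 1 dpi is about the shift of the whole array, and it turned to -0.04 after scaling to the array median. From 1 to 3 dpi the difference was 0.61 (adjusted p = 0.000401).

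Socs2 was read on its brightest probe at -1.61, -1.90 and -1.94 on the Ctrl arrays. The level was -1.58, -1.55 and -1.47 at 1 dpi and -0.75, -0.83 and -0.88 at 3 dpi. Ctrl replicate 1 lay next to the 1 dpi arrays, and the 3 dpi arrays lay above all others. The log2 fold change of Socs2 was 0.28 at 1 dpi (SE 0.10, adjusted p = 0.0361), which was 0.18 (adjusted p = 0.215) after quantile normalization and turned to -0.03 after scaling to the array median. At 3 dpi it was 1.00 (adjusted p = 0.000152), a fold of 1.995 and so not called. Leaving out 1 array was enough to bring the call, with a log2 fold change of 1.099 when Ctrl replicate 1 was left out, 1.00 for 3 dpi replicate 2 and 1.03 for 3 dpi replicate 3. From 1 to 3 dpi the difference was 0.71 (adjusted p = 0.000839), while on the probe at position 818 it was -0.15 (adjusted p = 0.174), with the 1 dpi arrays highest. After quantile normalization the latter was -0.01 (adjusted p = 0.882), so that both times were alike on that probe.

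Pim1, a serine/threonine kinase that supports survival and growth downstream of STAT5, had a level of 4.29, 4.14 and 4.11 on the Ctrl arrays. At 1 dpi the level was 4.85, 4.84 and 4.84, and at 3 dpi it was 4.95, 4.76 and 4.80. The arrays of both times overlapped and lay above all Ctrl arrays. Its log2 fold change was 0.66 (SE 0.08, adjusted p = 0.000262) at 1 dpi and again 0.66 (adjusted p = 0.00038) at 3 dpi, or 0.42 and 0.55 relative to all genes. At 1 dpi it was 0.41 (adjusted p = 0.00101) after quantile normalization. With the array median it was 0.35 and did not pass (adjusted p = 0.0756). Between 3 and 1 dpi the difference was -0.00 (adjusted p = 0.975), and it turned to 0.18 (adjusted p = 0.0482) after quantile normalization.

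Sh2b3 went the other way at 1 dpi. The level of this Jak2 inhibitor was 2.93, 2.92 and 2.85 in Ctrl, 2.47, 2.50 and 2.47 at 1 dpi and 2.85, 2.87 and 2.82 at 3 dpi. All 1 dpi arrays were below the others, while Ctrl and 3 dpi overlapped. Against Ctrl, Sh2b3 had a log2 fold change of -0.42 (SE 0.05, adjusted p = 0.000434) at 1 dpi, or -0.67 relative to all genes, and -0.05 at 3 dpi (adjusted p = 0.492). Between 3 and 1 dpi Sh2b3 was higher by 0.37 (adjusted p = 0.00113). The change at 1 dpi was negative on each of its 4 probes, from -0.42 to -0.12, and the adjusted p over probes was under 0.05 on those at positions 3967 and 4244 of the transcript. The step from 1 to 3 dpi was 0.29 on the probe at position 3967, but 0.01 at position 2493 and -0.11 at position 1570, where Sh2b3 was at -0.31 at 3 dpi (adjusted p = 0.132), so the return toward Ctrl was read on the probes at positions 3967 and 4244.

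On their brightest probe, the kinase Jak2, the phosphatase Ptpn11 and the ligase Cbl were near Ctrl with the scaling used, while after scaling to the array median they were lower at 1 dpi, at -0.43 (adjusted p = 0.0312), -0.50 (adjusted p = 0.0328) and -0.47 (adjusted p = 0.0122). Jak2 ranged from 1.25 to 1.398 in Ctrl, from 1.14 to 1.21 at 1 dpi and from 1.32 to 1.39 at 3 dpi. Its log2 fold change was -0.12 at 1 dpi (adjusted p = 0.137) and 0.06 at 3 dpi (adjusted p = 0.495). Between both times it differed by 0.18 (adjusted p = 0.0498), and after quantile normalization by 0.16 (adjusted p = 0.0653). Ptpn11 ranged from 3.79 to 4.11 in Ctrl, from 3.69 to 3.77 at 1 dpi and from 3.86 to 3.89 at 3 dpi. The differences of Ptpn11 from Ctrl were -0.19 (adjusted p = 0.0983) and -0.05 (adjusted p = 0.686), so neither passed, but after quantile normalization the difference at 1 dpi was -0.34 (adjusted p = 0.00779). Without Ctrl replicate 1 they were -0.095 and 0.04, and the difference of 0.14 between both times went from an adjusted p of 0.233 to 0.0452. Cbl ranged from 1.76 to 1.79 in Ctrl, from 1.60 to 1.64 at 1 dpi and from 1.63 to 1.73 at 3 dpi. Its log2 fold change was -0.15 at 1 dpi (adjusted p = 0.0441) and -0.10 at 3 dpi (adjusted p = 0.194). Without Ctrl replicate 1 the former no longer passed (adjusted p = 0.0542), nor did it after quantile normalization (adjusted p = 0.111).

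The other probes of these genes read differently at 1 dpi. Over all 44300 probes tested, 1 of the 17 probes of the 8 genes was called at 1 dpi and 2 at 3 dpi, and 1 was called between both times, against 14.6%, 8.44% and 8.78% of all probes. The call at 1 dpi is that of Cish, and the others are on dim Socs2 probes, at positions 2779 and 4173 for 3 dpi and at 2779 between both times, which were not well above background on any Ctrl or 1 dpi array. These probes entered the test through the 3 dpi arrays, where they are high, so the counts that rest on them are not comparable with the shares of all probes. On the adjusted p alone, 10, 7 and 9 of the 17 probes passed, against 55.8%, 32.9% and 46.1% of all probes. Jak2, Ptpn11, Cbl and Socs2 each have a further probe nearer the 5′ end of the same transcript, and these probes are shown, 5′ to 3′, because for Jak2, Ptpn11 and Cbl the direction at 1 dpi turns on which probe is read, and for Socs2 the higher level at 3 than at 1 dpi was not seen on the further probe.
Jak2, position 1984: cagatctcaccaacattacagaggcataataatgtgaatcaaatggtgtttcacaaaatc
Ptpn11, position 1600: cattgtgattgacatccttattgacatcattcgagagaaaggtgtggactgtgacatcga
Cbl, position 2343: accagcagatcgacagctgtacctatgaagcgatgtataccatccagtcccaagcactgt
Socs2, position 818: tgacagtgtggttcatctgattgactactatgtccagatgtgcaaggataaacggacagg

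On the upstream probe of Jak2, the level was -1.66, -1.65 and -1.58 in Ctrl, -0.75, -0.79 and -0.84 at 1 dpi and -1.58, -1.67 and -1.58 at 3 dpi. The 1 dpi arrays thus stood clear of the others, which overlapped. The log2 fold change at 1 dpi was 0.84 (SE 0.06, adjusted p = 3.03e-05) there, against -0.12 on the downstream probe at position 3865. For Ptpn11 it was 0.60 (SE 0.12, adjusted p = 0.00466) at position 1600 and -0.19 at position 5508. For Cbl it was 0.71 (SE 0.12, adjusted p = 0.00193) at position 2343 and -0.15 at position 4516. For Socs2 it was 0.94 (SE 0.08, adjusted p = 8.76e-05) at position 818 and 0.28 at position 1220, so the Socs2 probes had the same sign. At 3 dpi the upstream and downstream probes of Jak2, Ptpn11, Cbl and Socs2 differed by -0.04, 0.28, 0.23 and -0.21. The 2 probes of Jak2 were then near Ctrl (0.02 and 0.06), and those of Socs2 were both higher (0.78 and 1.00). Relative to the downstream probe, the upstream probe was therefore higher at 1 dpi in all 4 genes and in Sh2b3 (-0.12 at position 2493, -0.42 at position 4244).

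**Figure D2:**
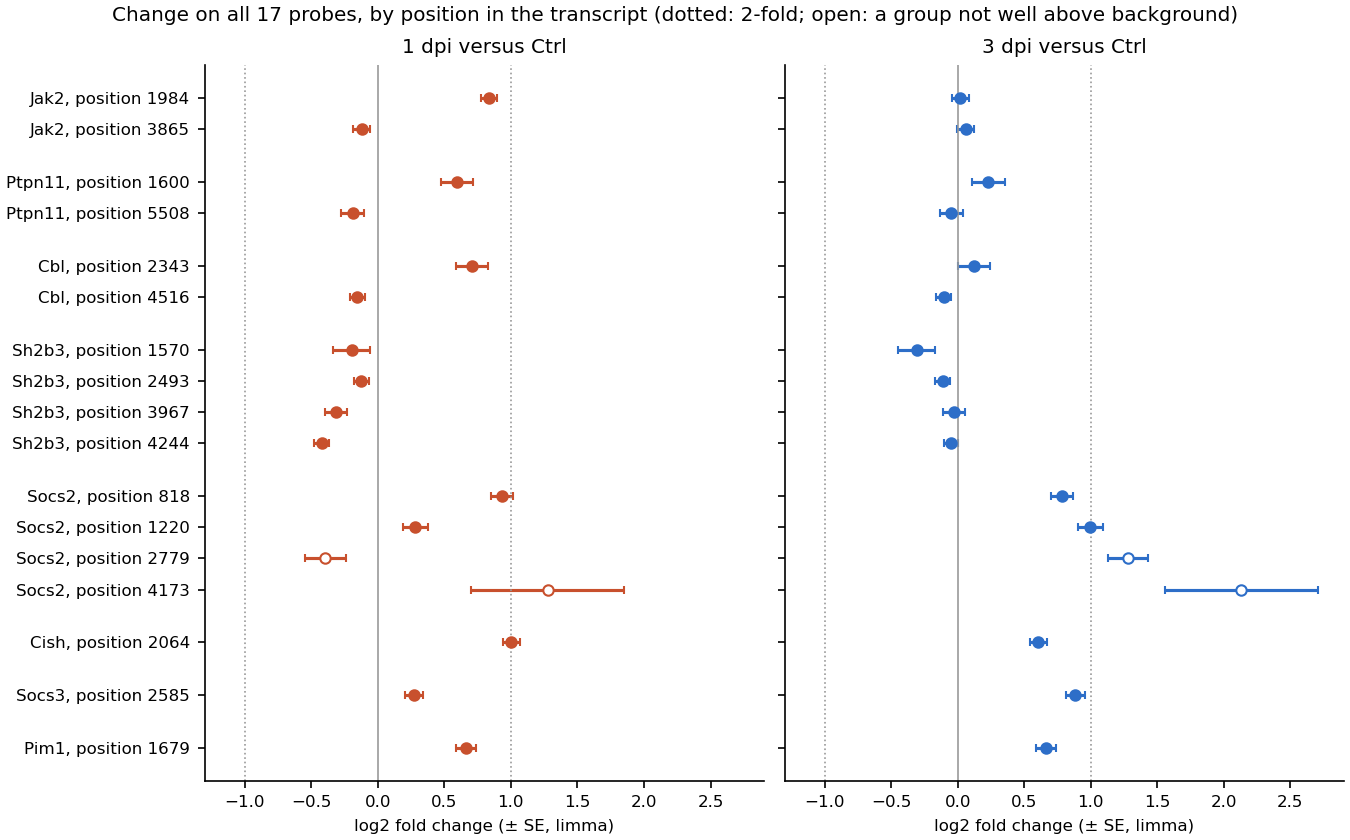
Log2 fold change with its standard error from limma on each of the 17 probes, at 1 dpi (left) and 3 dpi (right) against Ctrl, ordered by position in the transcript within each gene. Filled points are probes well above background in both groups, open points are probes on which a group was not, and dotted lines mark 2-fold. At 1 dpi the upstream probes of Jak2 (0.84), Ptpn11 (0.60) and Cbl (0.71) lie to the right of the downstream probes (-0.12, -0.19 and -0.15).

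The same contrast was measured across the array to give a background. In 5411 transcripts of 5375 genes with probes at least 60 bases apart, the upstream probe minus the downstream probe had a median difference in log2 fold change of 0.19 for 1 dpi and 0.00 for 3 dpi against Ctrl, and of -0.19 for 3 dpi against 1 dpi. It was above 0 in 63.5% of the transcripts at 1 dpi and in 50.5% at 3 dpi. A difference of at least 0.75 was found in 21.4% at 1 dpi and in 3.36% at 3 dpi, and Jak2 (0.96), Cbl (0.86) and Ptpn11 (0.78) were among the former. After quantile normalization the median at 1 dpi was 0.12, and the differences of Jak2, Cbl and Ptpn11 were 0.88, 0.65 and 0.97. A difference between an upstream and a downstream probe of a transcript at 1 dpi was thus seen in many genes of the array and not in these genes alone. The change at 1 dpi also varied with the brightness of the probe. Its median over probes was 0.55 among those with a mean level under -4, -0.10 between 0 and 1, -0.11 between 1 and 2, and 0.40 above 5. After quantile normalization these medians were 0.03, -0.08, -0.09 and -0.08, while the upstream probes of Jak2, Ptpn11, Cbl and Socs2 remained higher, at 0.78, 0.63, 0.52 and 0.71. Why the probes differ was not tested.

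**Figure D3:**
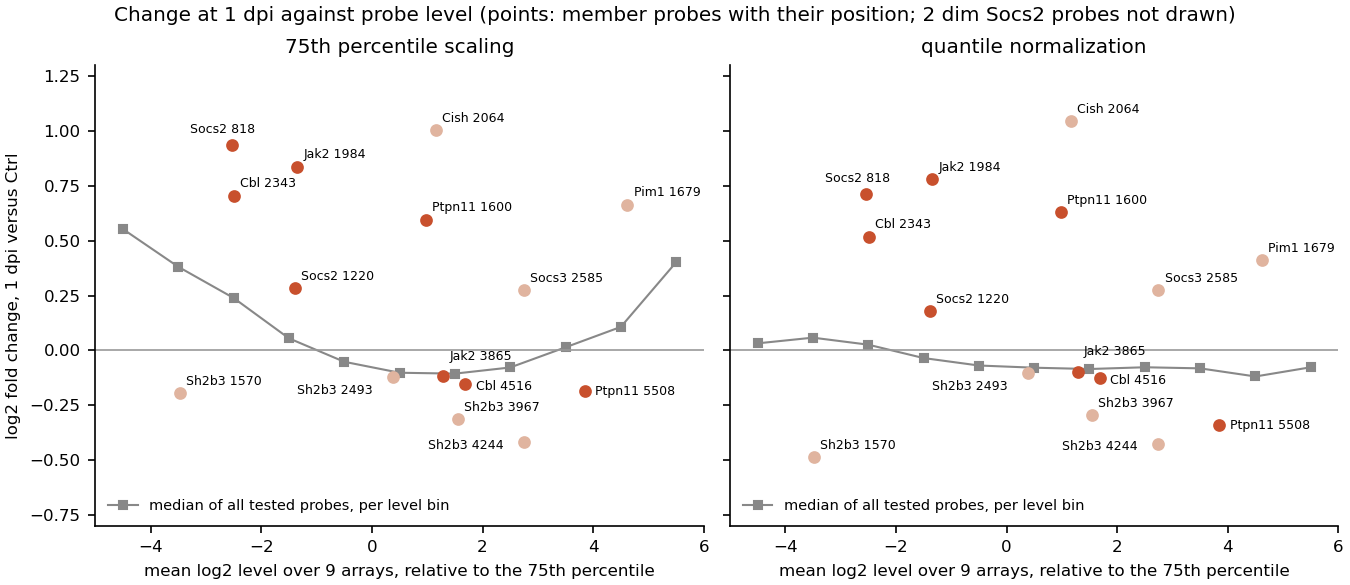
Log2 fold change at 1 dpi against the mean log2 level of the probe over the 9 arrays, with the scaling used throughout (left) and after quantile normalization (right). Squares are medians of all probes tested within a bin of level, drawn at the middle of the bin and, for the outer bins, beyond the outer limit. Points are probes of the 8 genes with their transcript position, and darker points are those of Jak2, Ptpn11, Cbl and Socs2, whose upstream and downstream probes differ. Quantile normalization flattens the medians (0.55 becomes 0.03 in the dimmest bin), while the upstream probe of Jak2 goes from 0.84 to 0.78.

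The deposited log2 table gives 1 value per gene name and array, and for 5 of the 8 genes it rests on another probe than the brightest. For Jak2, Ptpn11 and Cbl that is the upstream probe, and the table's log2 differences at 1 dpi were 0.78, 0.63 and 0.52. For Sh2b3 it is the probe at position 1570, and the table gives -0.49 at 1 dpi, -0.40 at 3 dpi and 0.09 between them. For Socs2 it is a probe of another transcript model, at position 2779, on which the gene was not well above background on any Ctrl or 1 dpi array, so the table's -1.13 at 1 dpi is a difference between signals near background. On that probe Socs2 was at least 1.53-fold higher at 3 dpi than in Ctrl, and on a further dim probe, at position 4173, at least 1.80-fold. Both probes entered the test only through the 3 dpi arrays, so a higher level there was built into their choice and adds no support. Against 1 dpi no bound could be given at position 2779, and that at position 4173 was 1.01-fold. The rows of Cish, Socs3 and Pim1 rest on the probe used here and gave 1.04, 0.28 and 0.41 at 1 dpi and 0.62, 0.86 and 0.59 at 3 dpi.

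The wider pathway was read through 56 further genes, all of which were tested. At 1 dpi 2 were called higher and 2 lower, where 15.2% of all genes were called, and at 3 dpi 1 was called higher, where 8.80% of all genes were called. Between 3 and 1 dpi 0 were called in limma's test, where 8.80% of all genes were called and 23 of the 56 had an unadjusted p under 0.05. The median log2 fold change of the 56 genes was 0.13 at 1 dpi and 0.09 at 3 dpi, which is -0.12 and -0.02 relative to all genes. After quantile normalization the medians were 0.01 and 0.04, and after scaling to the array median they were -0.19 and -0.03. Thpo, the ligand, is made mainly in the liver, and its difference of 1.18 at 1 dpi did not pass (adjusted p = 0.064), while without Ctrl replicate 1 it was 0.55 (adjusted p = 0.0132).

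The factors that carry the thrombopoietin signal, Stat5a and Stat5b, were lower at both times without reaching 2-fold, while Stat3 was at 0.17 (adjusted p = 0.273) and 0.245 (adjusted p = 0.185). Stat5a was at -0.53 (adjusted p = 0.000566) and -0.57 (adjusted p = 0.000601), and Stat5b at -0.49 (adjusted p = 0.000392) and -0.48 (adjusted p = 0.000609), at 1 and 3 dpi. Thpo, Stat3, Stat5a and Stat5b were named for their place in the pathway after their values were seen, as were Bcl2l1, Osm, Ccnd2, Socs1, Socs6, Socs7, Pim2 and Pim3, which follow.

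Of 9 STAT and cytokine target genes, 1 was called higher and 1 lower at 1 dpi, against 12.3% and 2.87% of all genes. On the adjusted p alone 6 were higher and 1 lower, against 34.8% and 21.1% of all genes. The median log2 fold change of the 9 genes was 0.59 at 1 dpi and 0.23 at 3 dpi, or 0.35 and 0.12 relative to all genes. Ccnd1, the cyclin of entry into the cell cycle, rose by a log2 fold change of 2.15 (SE 0.07, adjusted p = 9.5e-07) at 1 dpi and of 1.79 (adjusted p = 1.64e-06) at 3 dpi. Bcl2l1, which encodes the survival protein Bcl-xL, was 0.76 at 1 dpi (adjusted p = 6.03e-05) and 0.63 at 3 dpi (adjusted p = 0.000194), a pattern with the same signs as Pim1. Osm, an inflammatory cytokine, was 0.99 at 1 dpi (adjusted p = 6.56e-05), just under 2-fold, and Ccnd2 was 0.83 (adjusted p = 0.000305). After quantile normalization Osm and Ccnd2 were at 0.57 and 0.53 at 1 dpi. With the array median Bcl2l1, Osm and Ccnd2 were at 0.44, 0.68 and 0.51. Myc fell by 1.42 at 1 dpi (SE 0.09, adjusted p = 1.21e-05), though its other probe gave -0.26. Target genes of the pathway therefore did not share a direction.

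In the other branches, the exchange factor Sos1, which activates RAS, fell by 1.23 at 1 dpi (adjusted p = 2.93e-05), with -0.48 on the weakest of its 3 probes. Pik3ca, the catalytic subunit of PI3 kinase, rose by 1.27 (SE 0.36, adjusted p = 0.018), but without Ctrl replicate 1 it was at 0.80, and without 1 dpi replicate 2 it was at 1.23 with an adjusted p above the threshold, so that the call was lost either way, as it was in 8 of 25 alternatives in all. The groups of 4 JAK and Src family kinases, 9 RAS and MAPK genes and 14 other inhibitors had 0 called genes at 1 dpi in limma's test, with an unadjusted p under 0.05 in 1, 4 and 9 of them. Of all genes, 15.2% were called there.

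**Figure D4:**
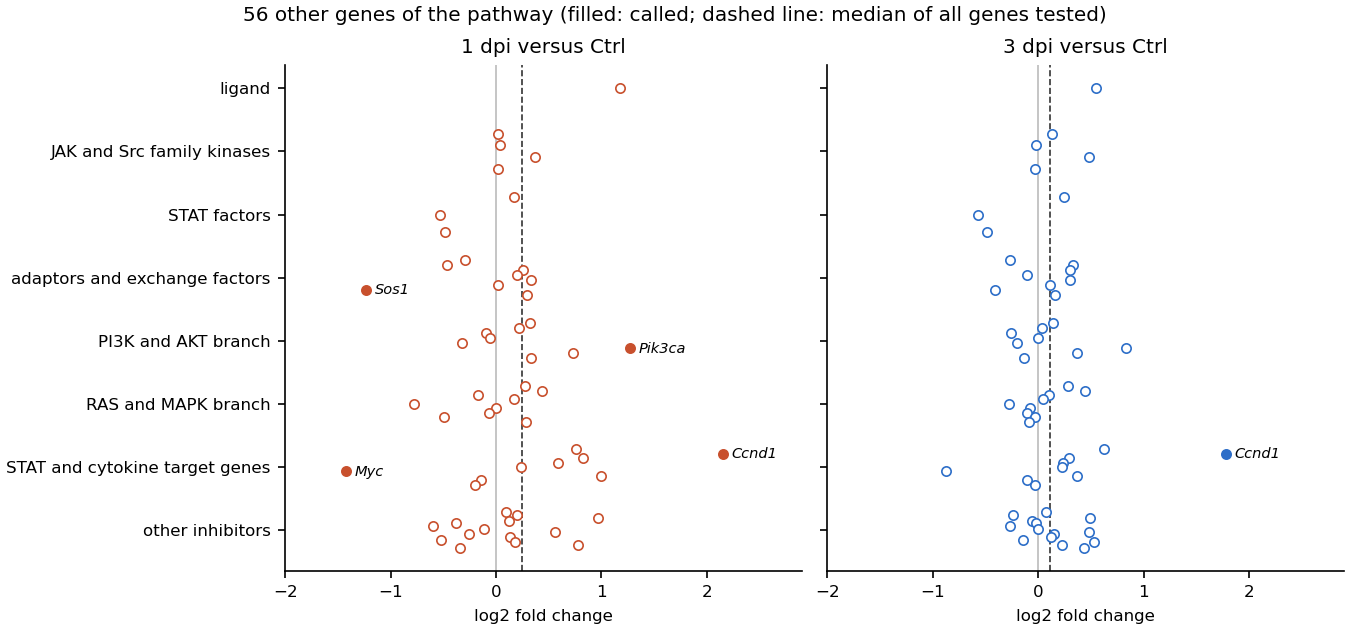
Log2 fold change of 56 further pathway genes at 1 dpi (left) and 3 dpi (right) against Ctrl, grouped by role. Each point is a gene, filled and named where it was called, and the dashed line is the median of all genes (0.25 and 0.11). The called genes at 1 dpi are Sos1, Pik3ca, Ccnd1 and Myc, and Ccnd1 alone is called at 3 dpi.

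Relatives of the 8 genes were compared to see whether other members of their families moved alike. The families count 23 genes, the 8 included, and 9 of them are in neither of the groups above. Of these 9, Cblc was called higher and Socs4 lower at 1 dpi, Jak3 higher at 3 dpi, and Socs4 higher at 3 dpi than at 1 dpi. Of all genes, 15.2%, 8.80% and 8.80% were called in these comparisons. In the SOCS family of 8 genes, the sign differed between members at 1 dpi. For Socs4 the log2 fold change at 1 dpi was -1.42 (SE 0.14, adjusted p = 0.000152), and from 1 to 3 dpi it rose by 1.08 (adjusted p = 0.000816), with its other probes reaching 0.12 and -0.20. The rise of Socs4 lost the call without 1 dpi replicate 1 (0.97) or 3 dpi replicate 2 (1.00). Socs6 and Socs7 were at -0.69 and -0.66 at 1 dpi, and Socs1, the inhibitor induced by interferon signals, was at 0.77 at 1 dpi (adjusted p = 0.00014) and 0.23 at 3 dpi (adjusted p = 0.0567). Socs1 was thus higher at 1 dpi, as Cish was, while Socs3 and, on its brightest probe but not on that at position 818, Socs2 were highest at 3 dpi. Jak3, the kinase of lymphoid cytokine receptors, rose by 1.49 at 3 dpi (SE 0.17, adjusted p = 0.000392), with 0.20 on the lowest of its 3 probes. Cblc, the epithelial relative of Cbl, rose by 1.54 at 1 dpi (adjusted p = 0.000589) on a dim probe, at a mean level of -5.61 in Ctrl, and it was at 1.04 after quantile normalization and at 0.41, and so not called, with normexp before that. The relatives of Pim1, Pim2 and Pim3, were at -0.14 and -0.20 at 1 dpi, and neither passed, but Pim2 did after quantile normalization (-0.49, adjusted p = 0.0125) and with the array median (-0.46, adjusted p = 0.0201).

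Over the 9 arrays, the genes whose values were most like those of Cish among 24006 genes well above background throughout were Smox (r = 0.9995) and Mx1 (r = 0.9986). The 9 arrays fall into 3 groups, so that these values describe a pattern over 3 group means. Smox rose by 1.48 at 1 dpi and was at 0.87 at 3 dpi, and Mx1 rose by 2.96 and 1.77.

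The label of the cells was checked with marker genes, since a bulk sample cannot tell fewer cells of a type from less RNA per cell. All 10 megakaryocyte markers were well above background on every array. In limma's test 0 of them were called in any comparison, against 15.2%, 8.80% and 8.80% of all genes. An unadjusted p under 0.05 was found in 4 of these markers for 1 dpi, 4 for 3 dpi and 7 for the contrast of both times. Their summed intensity, in multiples of the 75th percentile of the array, was between 109.5 and 122.5 in Ctrl, between 112 and 124 at 1 dpi and between 128 and 131 at 3 dpi. Pf4, the brightest of them, had a log2 fold change of 0.09 at 1 dpi, which turned to -0.34 after quantile normalization, and of 0.01 at 3 dpi. The 4 that passed on the adjusted p alone at 3 dpi were all higher, Gp6 (0.95), Gp9 (0.93), Gp1bb (0.79) and Ppbp (0.64). Of all genes, 16.9% were higher and 15.1% lower there. At 1 dpi 2 passed as higher and 2 as lower, against 34.8% and 21.1% of all genes. Among these were Itga2b at 0.69 and Gp1ba at -0.82, the latter at -1.13 after scaling to the array median. Markers of other marrow cells were also well above background, except Vsig4 of the macrophage list on Ctrl replicate 1 and the 1 dpi arrays and an erythroid marker given below, and many of them changed with IR. Some outshone the megakaryocyte markers. The neutrophil markers summed to between 1027 and 1846 over all arrays, and Mpo was brighter than Pf4 on every array. Hba-a1 was brighter than Pf4 in Ctrl and at 1 dpi. The RNA is thus that of an enriched and mixed sample, and the share of each cell type was not measured.

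Macrophage markers were highest at 3 dpi. At 1 dpi 3 of 10 such markers were called higher, against 12.3% of all genes, and 1 lower, against 2.87%. At 3 dpi 8 of them were called higher, against 6.98% of all genes. Their summed intensity went from between 37.2 and 44.6 in Ctrl to between 60.4 and 65.7 at 1 dpi and between 109 and 116 at 3 dpi. The brightest, Csf1r, was at 1.05 at 3 dpi, but at 0.996 after quantile normalization, 0.92 with the array median and 0.63 on its other probe, and C1qb rose by 2.51, while Cd163 fell by 2.07 at 1 dpi. Stromal markers, with Cxcl12 brightest, were between 9.62 and 10.1 in Ctrl, between 43.4 and 50.4 at 1 dpi and between 83.0 and 90.7 at 3 dpi, with 5 and 4 of 7 called higher, among them Dcn by 3.65 at 3 dpi, while Pdgfrb was lower, at -0.405 (adjusted p = 0.0125) and -0.39 (adjusted p = 0.0242). Lepr was highest at 1 dpi, with a difference of -0.97 (adjusted p = 0.0384) from 1 to 3 dpi. Endothelial markers, with Stab2 brightest, were between 1.81 and 2.07 in Ctrl, between 3.27 and 3.63 at 1 dpi and between 6.62 and 7.95 at 3 dpi, with 2 and 4 of 5 called higher, among them Cdh5 by 1.74 and 2.40, while Tek was lower at 1 dpi, at -0.905 (adjusted p = 0.000404) and past 2-fold with quantile normalization (-1.20) or the array median (-1.22). Neutrophil markers, with Mpo brightest, were highest at 1 dpi, though their median log2 fold change there, 0.55, turned to -0.02 after quantile normalization. Their sum was between 1031 and 1093 in Ctrl, between 1694 and 1846 at 1 dpi and between 1027 and 1151 at 3 dpi, and 2 of 9 were called higher at 1 dpi and 0 at 3 dpi in limma's test, where 1 had an unadjusted p under 0.05. These are S100a8 (1.14) and S100a9 (1.02), which both lost the call after quantile normalization (0.415 and 0.24) and with the array median (0.83 and 0.70), S100a9 also without Ctrl replicate 1 (0.97). The T and NK cell markers, with Nkg7 brightest, summed to between 29.2 and 30.9 in Ctrl, 39.8 and 42.6 at 1 dpi and 31.1 and 35.3 at 3 dpi. Of these 7 markers, 1 and 3 were called higher, and at 1 dpi that is near the share of all genes (12.3%). Ncr1 rose by 1.02 at 1 dpi but lost the call in 9 of 25 alternatives, among them leaving out Ctrl replicate 1 (0.91), 1 dpi replicate 1 (0.97) or 1 dpi replicate 2 (0.98). Klrb1c rose by 1.97 at 3 dpi, and Cd3g rose by 1.42 from 1 to 3 dpi. In that step 2 of 7 were called higher, against 3.97% of all genes. On the adjusted p alone 4 were higher and 1 lower, against 19.8% and 24.9% of all genes. The lower one was Nkg7 (-0.33, adjusted p = 0.006), and Cd3e (-0.45, adjusted p = 0.0851) and Cd4 (-0.40, adjusted p = 0.218) were lower without passing.

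B cell markers were mostly lower after IR, and erythroid markers were mixed at 1 dpi and mostly lower at 3 dpi. B cell markers, with Cd79b brightest, summed to between 23.8 and 25.4 in Ctrl, 5.30 and 5.53 at 1 dpi and 4.94 and 5.13 at 3 dpi, with 6 of 7 called lower at either time, and Vpreb3 fell by 5.42 and 3.96. Of all genes, 2.87% were called lower and 12.3% higher at 1 dpi, and 1.82% lower at 3 dpi. Of 8 erythroid markers, 5 were called lower and 2 higher at 1 dpi and 7 lower at 3 dpi. The 2 higher ones each lost the call under another scaling, Hba-a1 (1.34) after quantile normalization (0.70) and Hbb-b1 (1.08) with the array median (0.76). The sum of the 8 markers, which rests on Hba-a1, was between 85.35 and 104 in Ctrl, between 197 and 245.5 at 1 dpi and between 30.6 and 33.5 at 3 dpi, while Ahsp fell by 7.62 at 1 dpi. Epb42 was not well above background on the 1 dpi arrays and 3 dpi replicate 1, and at 1 dpi it was at least 4.06-fold lower than in Ctrl. The 8 genes are expressed in several of these cell types, and the part of such cells in the changes of Cish, Socs2, Socs3, Pim1 and Sh2b3 was not tested.

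**Figure D5:**
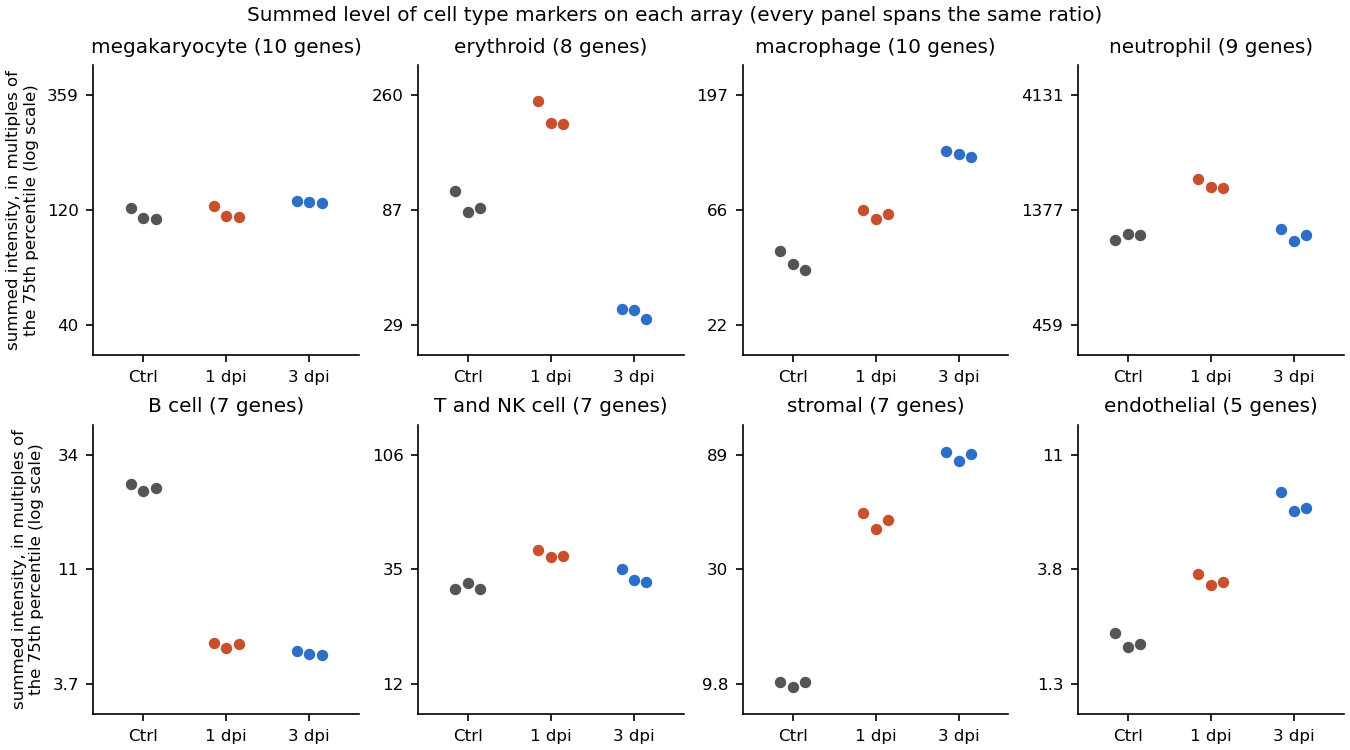
Summed intensity of the markers of 8 cell types on each array, in multiples of the 75th percentile of that array, on log axes that span the same ratio in every panel. Points are single arrays. The sum of the megakaryocyte markers, with Pf4 brightest, stays between 109.5 and 131 on all 9 arrays. That of the B cell markers is lower at both times after IR, and those of the macrophage, stromal and endothelial markers are highest at 3 dpi. Single markers of a list can differ from its sum.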

How the data were processed

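RNA of the cells enriched as mMKs was measured on 9 Agilent 1-colour arrays, while the paper's methods describe another array type. The authors deposited spot values in units of intensity from Agilent Feature Extraction 10.7.1.1, background-subtracted and detrended but not scaled between arrays, with other columns of flags of 0 or 1 per spot. A log2 table was deposited too, with nearly equal quartiles on all arrays and made in a way that is not stated, and it was used as an alternative. A single probe matched 26906 of its 27275 gene names within 0.1. Outlier spots were left out, spots of a probe were averaged, and the 75th percentile of each array was subtracted. Kept were probes that were well above background on every array of at least 1 group, and the brightest probe stood for its gene. Fold bounds use the lowest signal well above background on each array of the dimmer group, or the gene's own signal where higher. Groups were fitted together with limma 3.58.1 in R 4.3.3 with Benjamini-Hochberg adjustment over all 29410 genes, or over 44300 probes. Other tools were Python 3.11.15, matplotlib 3.10.9 and, for reading files, the R package data.table (version 1.17.8). The alternatives were other scalings, filters, thresholds and probe choices, slide, replicate block, array weights, other tests and leaving out each array.

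The 8 genes and all gene lists were chosen with earlier results of these data known. Named genes are the 8 members, per role at most 3 called genes of the pathway and family lists with the largest change, from each marker list the brightest and the most changed called gene, and the 2 genes most correlated with a called member, and others where the text says so or to give the range of the megakaryocyte markers. Tek, Pdgfrb, Lepr, S100a9, Hbb-b1, Cd3e, Cd4 and Vsig4 were named from their values, to show markers that went another way, lost a call or lay near background. Of the lists set out beforehand, 3 genes are not reported here and are not counted. The markers cover stromal, endothelial, megakaryocyte, erythroid, B cell, macrophage, T and NK cell and neutrophil genes.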

Additional observations from a re-analysis of the deposited data

Results flagged for a closer look

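In 5 of the 8 genes the change from Ctrl differed between the 2 times, by limma's test of the difference, in which the Ctrl arrays cancel. Of all genes, 19.8% were higher and 24.9% lower by the same test. The change at 3 dpi minus that at 1 dpi, on the log2 scale, was 0.71 for Socs2 (adjusted p = 0.000839), 0.61 for Socs3 (adjusted p = 0.000401), 0.37 for Sh2b3 (adjusted p = 0.00113), 0.18 for Jak2 (adjusted p = 0.0498) and -0.40 for Cish (adjusted p = 0.00164). These are values of the brightest probe, and on other probes of the same gene well above background they differ. For Jak2 it was -0.82 on the upstream probe (adjusted p = 6.55e-05), for Socs2 -0.15 at position 818 (adjusted p = 0.174), and for Sh2b3 0.29 (adjusted p = 0.0234), 0.01 (adjusted p = 0.905) and -0.11 (adjusted p = 0.536) at positions 3967, 2493 and 1570. With the array median as scale, neither Cish, whose difference shrank to -0.205 (adjusted p = 0.281), nor Jak2, whose difference grew to 0.37 (adjusted p = 0.0706), passed.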

How the results depend on the processing

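The counts of calls, the values of the 8 genes and those of other called genes were recomputed under 25 alternatives, 9 of which leave out each array in turn. These other genes are the called genes of the pathway, family and marker lists named by rule for their change, in the comparison that named them. S100a8 and Epb42 have no value with the deposited table, nor Epb42 where a probe must be well above background on every array. Of 600 values of the 8 genes, 539 kept their direction and side of the threshold, 28 gained a call, 4 lost one and 29 changed sign. Of 697 values of these other called genes, 668 kept both and 29 lost the call. Markers named only as the brightest of a list, the genes most correlated with Cish and genes named from their values are not in this tally. After quantile normalization, alone or with normexp on the raw signals, Pim1 between 3 and 1 dpi became 0.18 and 0.19. With the array median, Socs2 and Socs3 at 1 dpi became -0.032 and -0.042, Jak2 at 3 dpi -0.064 and Pim1 between 3 and 1 dpi 0.188. The deposited log2 table rests on other probes for 5 of the 8 genes, and with it Jak2, Ptpn11, Cbl and Socs2 at 1 dpi became 0.78, 0.63, 0.52 and -1.13, while Jak2, Ptpn11 and Cbl between 3 and 1 dpi became -0.76, -0.39 and -0.44, Pim1, on the same probe as here, 0.178, and Ptpn11 and Cbl at 3 dpi 0.241 and 0.078. With the mean of all probes, Jak2, Cbl and Ptpn11 became 0.36, 0.28 and 0.205 at 1 dpi and -0.32, -0.27 and -0.115 between 3 and 1 dpi, and Cbl and Ptpn11 at 3 dpi 0.009 and 0.09. Ptpn11 at 3 dpi became 0.042 with slide as a block and 0.032 with array weights. Since Ctrl replicate 1 was alone on its slide, slide as a block gave the same values as leaving that array out. These are therefore not separate checks among the 25 alternatives. Leaving out an array gave -0.114 to 0.042 for it and -0.06 to 0.036 for Pim1 between 3 and 1 dpi.

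The number of the 8 genes called at 1 dpi was 0 with the array median, 2 with the deposited table, 6 with no minimum fold change and 2 at 1.5-fold. At 3 dpi it was 1 with the mean of all probes, slide as a block or array weights, and 4 with no minimum or 1.5-fold, and between 3 and 1 dpi it was 1 with the deposited table, 5 with no minimum and 2 at 1.5-fold. Leaving out an array gave 0 to 1 at 1 dpi and 0 to 1 at 3 dpi. With the deposited table, Socs2 is among the 2 genes called at 1 dpi and is the 1 called between 3 and 1 dpi, on its probe at position 2779. That probe was not well above background on any Ctrl or 1 dpi array and passed the filter through the 3 dpi arrays, so these counts say little about Socs2. The mean of all probes of Socs2 also takes in its dim probes. Of the 17 probes, those called at 1 dpi were 2 after quantile normalization, 0 with the array median, 10 with no minimum and 6 at 1.5-fold. At 3 dpi they were 1 after quantile normalization, 0 with normexp and quantile normalization, 0 among probes well above background on all 9 arrays, and 7 with no minimum or at 1.5-fold. Between 3 and 1 dpi they were 0 with normexp and quantile normalization, 0 with that filter, 9 with no minimum and 4 at 1.5-fold. Leaving out an array gave 0 to 1 probes at 1 dpi and 1 to 2 at 3 dpi.

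Over all genes, the counts called at 1 dpi, 3 dpi and between 3 and 1 dpi were 1674, 1154 and 1091 with normexp followed by quantile normalization, 16443, 9416 and 13125 with no minimum fold change and 9935, 4840 and 6676 at 1.5-fold, and 4489 between 3 and 1 dpi with no filter on dim probes. The looser thresholds add genes by construction, and the cause of the other differences was not tested. Arrays with the same replicate number were not treated as pairs, since over 9 such pairs the correlation of residuals was between -0.11 and 0.13. Signal over background limits the 2 dim Socs2 probes.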
